A study of Arabidopsis thaliana with 16 samples.

Results

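Small RNA bound by ARGONAUTE 9 (AGO9) in 7-day shoot apices of Arabidopsis thaliana was compared with the small RNA of the input, over all annotated features and by read size. The comparison used 4 of the 16 libraries of the series, chosen by their labels: 2 AGO9 immunoprecipitates (IPs) and 2 inputs of the same age. The AGO9 IPs came from plants that carried GFP-AGO9 under the AGO5 promoter (pAGO5::GFP-AGO9) in Columbia (col-0). Input replicate 1 came from the pAGO5::GFP-AGO5 line and input replicate 2 from the pAGO5::GFP-AGO9 line, so the inputs spanned both lines and only the second was of the genotype precipitated. A background IP from p35S::GFP plants and the AGO5 IP from pAGO5::GFP-AGO5 plants, each with 2 libraries of 7-day apices, were used only to show where the AGO9 IP differed. The AGO9 IP and input at 35 days, from inflorescence and flower meristems with young buds, were used in the same way. Age and tissue therefore changed together. The tagged protein was made under the promoter of another ARGONAUTE gene, and the labels do not say whether the native AGO9 gene was intact or how many plants made up a library. Nothing in the labels says that replicates came from separate cultures of plants, so p-values measure the spread between these libraries, which may be technical. The labels describe all 16 libraries, inputs included, as RNA from an immunoprecipitation.

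ARGONAUTE proteins hold a small RNA and use it to find matching transcripts. AGO9 belongs to the same branch of the family as AGO4 and AGO6, whose members carry 24 nt small interfering RNAs (siRNAs) made at transposable elements (TEs) and repeats and guide DNA methylation there. These proteins prefer small RNAs that start with adenine (A), whereas AGO1, which carries most microRNAs (miRNAs), prefers uracil (U). AGO9 is best known from the ovule, where it acts in cells next to the germ line. Values below are RPM, reads scaled to the total of all 21 to 24 nt reads assigned to features in a library, so a rise of one class lowers the others. Because tissue was processed in bulk, fewer cells of a type and less small RNA per cell cannot be told apart.

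Sequences of miRNA loci are shown because the loci are grouped below by the length and first base of their annotated products. The first base of the reads was not measured, and no test of a difference between first bases was run. The mature sequences below are from RefSeq (TAIR10.1) and are given 5′ to 3′, with the seed (bases 2 to 8) in capitals. The first 3 loci were the only MIRNA genes higher in the AGO9 IP than in the input, and the last 4 stand for families that were lower. MIR829 on chromosome 1 has 3 annotated products, of which one is 24 nt long and starts with A.
miR829-3p.1: aGCUCUGAuaccaaaugauggaau
miR829-3p.2: cAAAUUAAagcuucaagguag
miR8121: aAAGUAUAaugguuuagugguuug
miR5638a: aUACCAAAacucucucacuuu
miR169d: uGAGCCAAggaugacuugccg
miR172a: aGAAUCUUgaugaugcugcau
miR156a-5p: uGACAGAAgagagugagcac
miR396a-5p: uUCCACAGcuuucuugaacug
The miR169d sequence was also that of miR169e, miR169f-5p and miR169g-5p. The miR172a sequence was also that of miR172b-3p, and miR172c, miR172d-3p and miR172e-3p shared its seed.

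The AGO9 IPs held 55823046 and 99594348 read assignments and the inputs 15459547 and 14495665, and 3 reads corresponded to 0.0301 to 0.207 RPM in these libraries. The 95% Wilson interval of a share of a library was at most 0.0256 percentage points to either side, which covers counting error only. Over the 17020 features tested, log2(RPM + 1) of the inputs correlated at r = 0.994 and that of the AGO9 IPs at r = 0.971, as a description across features. The age labels were set against miRNAs known to change with age. The MIR156 family with its MIR157 loci, which mark the juvenile shoot, summed to 4637 and 4476 RPM in the day 7 inputs and to 274 and 735 RPM in the day 35 inputs. MIR172 loci, which rise with age, summed to 63.5 and 72.6 RPM at day 7 and to 392 and 321 RPM at day 35, so both families went with the labels.

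Reads of 24 nt made up 76.4% and 89.8% of the AGO9 IPs, against 35.7% and 37.1% of the inputs. The groups did not overlap, and the mean was 83.1% ± 9.50 (SD, n = 2) in the IP and 36.4% ± 0.968 (SD, n = 2) in the input. All other sizes were below the input in both AGO9 libraries. Reads of 21 nt were 13.5% and 3.68% of the AGO9 IPs against 26.8% and 26.1% of the inputs. Reads of 22 nt were 5.01% and 2.71% against 17.4% and 16.7%, and reads of 23 nt were 5.15% and 3.79% against 20.2% and 20.1%. With 2 libraries against 2, the two-sided exact permutation p of each share was 0.333, the smallest this design allows. In the GFP-only IPs 24 nt reads were only 21.3% and 17.6%, below both inputs, and in the AGO5 IPs they were 42.7% and 52.7%.

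**Figure D1:**
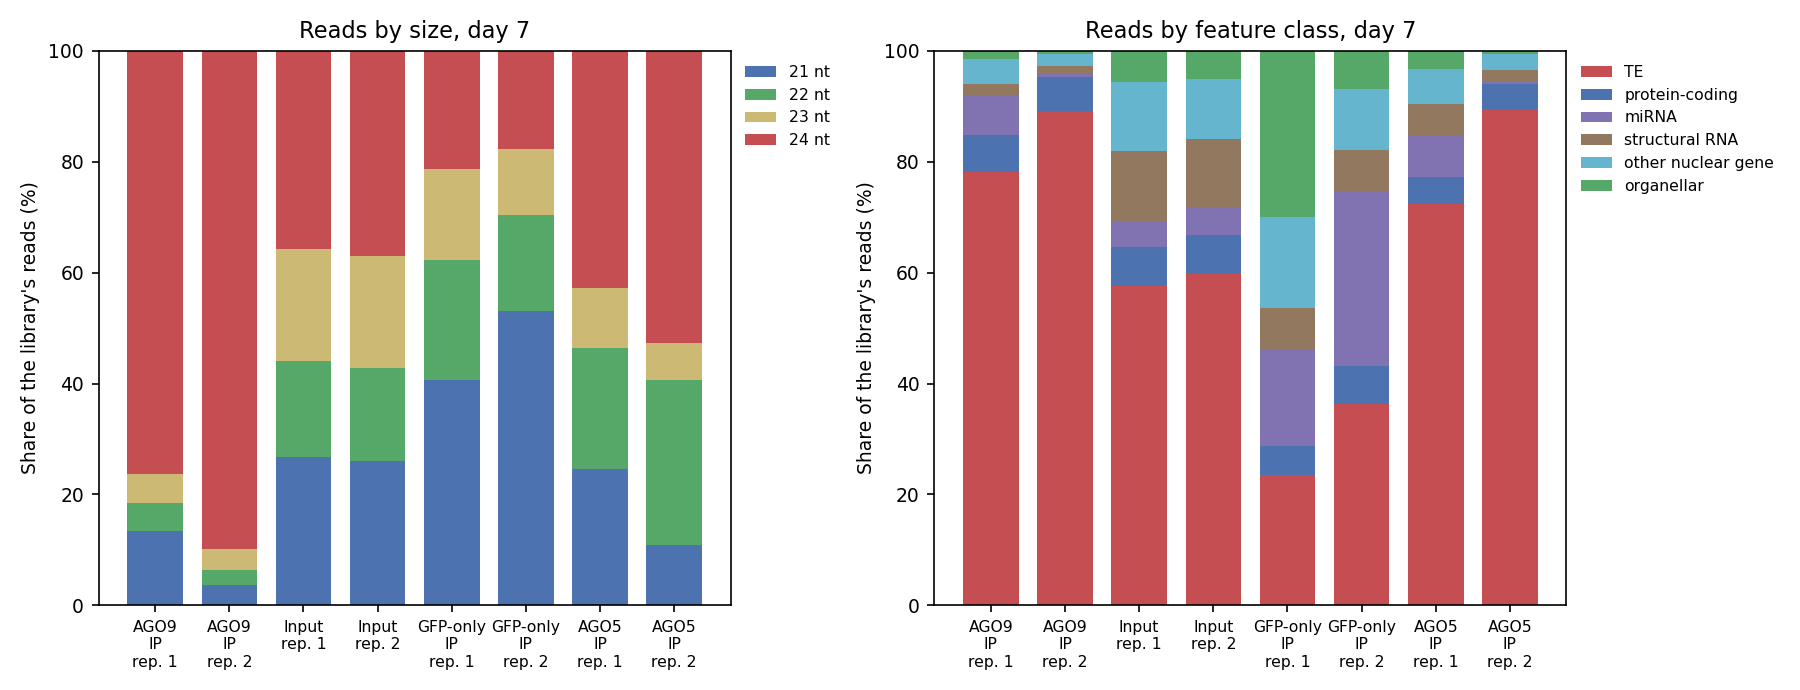
Share of each day 7 library's 21 to 24 nt reads (%) by read size (left) and by feature class (right), with a stacked bar for each of the 2 AGO9 IP, 2 input, 2 GFP-only IP and 2 AGO5 IP libraries. The 24 nt reads fill 76.4% and 89.8% of the AGO9 IPs and 35.7% and 37.1% of the inputs, and the miRNA share differs between the AGO9 replicates (7.19% and 0.505%).

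Feature by feature, 24 nt reads rose and shorter reads fell. Of 14054 features tested for their 24 nt reads, 4319 (30.7%) rose in the AGO9 IP and 331 (2.36%) fell (limma on log2(RPM + 1), adjusted p under 0.05 over all sizes together). The median log2 difference was 1.205, and 12523 of the 14054 estimates were above 0. Of 6713 features tested at 21 nt, 1 (0.0149%) was higher and 681 (10.1%) lower, at 22 nt 1 of 7325 (0.0137%) was higher and 923 (12.6%) lower, and at 23 nt 1 of 8482 (0.0118%) was higher and 2073 (24.4%) lower. The single feature that was higher at 21, at 22 and at 23 nt was AT2G07674, described with the protein-coding genes. The 24 nt counts depended on each library: 1922 features were higher without AGO9 replicate 1, 4 without AGO9 replicate 2, and 0 without either input, where 196, 11, 11 and 11 were lower. The 3677 lower calls of 21 to 23 nt values became 1982 and 9 without AGO9 replicates 1 and 2, and 6 and 9 without input replicates 1 and 2. Scaled to the reads of the same size, 0 features were called higher at 24 nt and 78 lower. On that scale the median log2 difference was 0.26 over all features, 0.33 for TE features, -0.48 for miRNA genes, -3.29 for structural RNA and -2.85 for plastid features.

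**Figure D2:**
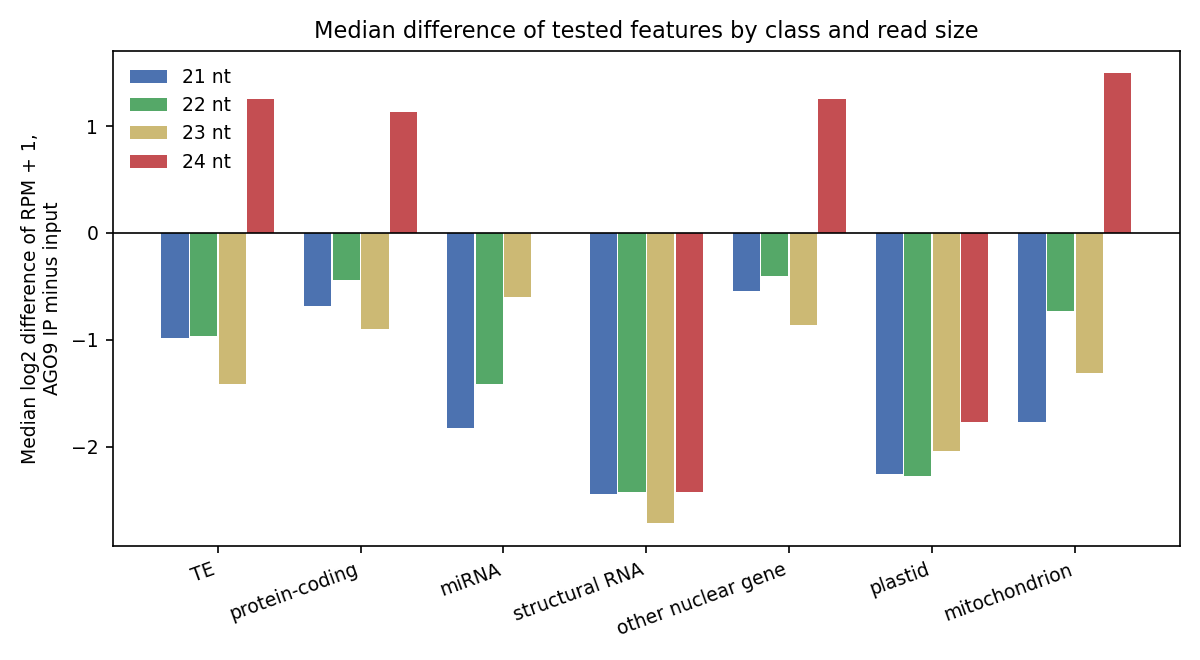
Median log2 difference of RPM + 1 (AGO9 IP minus input, day 7) of the features tested in each class at 21, 22, 23 and 24 nt, on RPM of all sizes. At 24 nt the medians of TEs, protein-coding genes, other nuclear genes and mitochondrial features are above 0 (1.25, 1.13, 1.25 and 1.495), the miRNA median is at 0, and structural RNA and plastid features are below 0 at every size.

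The size of the reads also shifted within features. A 24 nt preference, the log2 of 24 nt RPM + 1 minus the log2 of 21 to 23 nt RPM + 1, rose in the AGO9 IP for 5149 of the 7326 features that averaged 10 RPM or more (70.3%), and fell for 0. The median share of 24 nt reads within a feature was 92.4% and 96.6% in the AGO9 IPs against 63.2% and 62.8% in the inputs. The rise of 46.7 points in the 24 nt share of the library came to 23.1 points from a higher 24 nt share within features and 23.6 points from more reads on features rich in 24 nt reads. Of the within-feature part, 20.3 points lay in TEs and 1.67 points in protein-coding genes. Among miRNA loci the median 24 nt share was 0.0225% and 0.120% in the IPs and 0.0809% and 0.0718% in the inputs, and among structural RNA genes it was 20.6% and 23.9% against 19.1% and 18.4%. The preference measure also rises where 21 to 23 nt reads fall to the pseudocount, as at MIR169d and MIR169g, the features it named first, which had at most 0.0502 RPM of 24 nt reads in an AGO9 library. Without AGO9 replicate 2 no feature was called, although the median difference in preference was 2.46 there against 2.86 with all libraries. Without AGO9 replicate 1, input replicate 1 and input replicate 2 the calls were 4352, 2232 and 1877. When each library was centred on its median (with the day 35 GFP-only libraries left out) or quantile normalized, which removes a shift common to most features, the calls became 27 higher with 813 lower and 3 higher with 18 lower.

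By feature class, the AGO9 IP held more reads on TEs and fewer on structural RNA than the input. TEs took 78.2% and 89.2% of the AGO9 IPs against 57.6% and 59.7% of the inputs. Structural RNA genes (nuclear rRNA, tRNA, snoRNA and snRNA) took 2.02% and 1.42% against 12.7% and 12.2%, and organellar features took 1.501% and 0.571% against 5.70% and 5.18%. Other nuclear genes, which include noncoding RNA genes and pseudogenes, took 4.43% and 2.225% against 12.4% and 10.8%. None of these 4 shares overlapped between the groups (exact permutation p = 0.333 each, the smallest possible). Protein-coding genes took 6.64% and 6.09% of the AGO9 IPs and 6.91% and 7.13% of the inputs, a difference of 0.656 points that also did not overlap. The miRNA share did overlap: it was 7.19% in AGO9 replicate 1 and 0.505% in AGO9 replicate 2, on either side of the inputs at 4.73% and 4.97%. Without AGO9 replicate 2 the miRNA difference, IP minus input, turned from -1.005 points to 2.34 points.

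Over all sizes summed, 2988 of 17020 features (17.6%) rose in the AGO9 IP and 1614 (9.48%) fell by limma. By class, 2580 of 12233 TEs were higher and 465 lower, as were 278 and 650 of 3172 protein-coding genes, 3 and 29 of 153 miRNA genes, 0 and 373 of 562 structural RNA genes and 115 and 25 of 686 other nuclear genes. Other nuclear genes had a median log2 difference of 0.81, although their summed share of reads was below the input. The median log2 difference over all features was 0.65 with RPM, 0.26 after quantile normalization and 0.12 with median centring. Calls were tested against 0 and not against this median. The split of calls moved with the scaling, to 1769 higher and 2474 lower with median centring and to 1676 and 1832 with quantile normalization. On whole reads recovered from the RPM (100% of values within 0.01 of a whole read), the edgeR quasi-likelihood test called 37 higher and 701 lower and DESeq2 942 and 1697. The limma counts fell whenever 1 of the 4 libraries was left out, so they depended on each of them. The median log2 difference was 0.65 and 0.65 without AGO9 replicates 1 and 2, and 0.58 and 0.72 without input replicates 1 and 2. The counts also rest on a spread estimated over all 16 libraries. With the 4 libraries alone, limma called 9216 higher and 2676 lower.

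TEs were split by length, by place and by overlap with genes. A long TE can collect more reads, which would place its values further from the pseudocount. Whether this shaped the calls was not tested. Of TEs of 2000 bp or more, 1240 of 2401 rose and 0 fell, and the median log2 difference was 1.32, against 945 higher and 27 lower of 5178 TEs of 500 bp up to 2000 bp and 395 higher and 438 lower of 4654 shorter TEs. In 500 kb windows of which at least 40% was TE (45 of 240 windows), 2091 of 7296 TEs were higher, and outside them 489 of 4937. Long TEs inside these windows had the highest share, with 1083 of 1771 higher, and long TEs outside them had 157 of 630. Of TEs that overlapped a gene feature 165 of 980 were higher, and of the others 2415 of 11253. Per kb of annotated length, long TEs held 35.6 and 42.9 RPM per kb in the AGO9 IPs against 15.7 and 17.4 in the inputs, and short TEs 26.1 and 28.6 against 60.8 and 56.9. In summed level the long TEs were above the input and the short TEs below it, and most of the deficit of the short TEs lay in elements with a shared sequence that is described below. Short TEs without that sequence took 5.31% and 5.82% of the AGO9 IPs against 6.63% and 6.69% of the inputs, and 395 of 4317 tested were higher and 134 lower. Their median log2 difference was 0.60. The median of long TEs stayed above 0 under all 15 alternatives, whereas that of short TEs was -0.00 with median centring. Among TEs that averaged 10 RPM or more over all libraries, 1137 of 1941 long TEs were higher and 0 lower, with a median of 1.33. Of 1431 short TEs at that minimum, those with the shared sequence included, 49 were higher and 438 lower, with a median of 0.14. The count of 1240 long TEs became 871, 76, 0 and 541 without AGO9 replicate 1, AGO9 replicate 2, input replicate 1 and input replicate 2.

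Among TEs named by size of change, AT4TE14460 (chr4:3140180-3142994, 2815 bp) had 28.9 and 41.9 RPM in the AGO9 IPs and 2.85 and 3.04 RPM in the inputs. Its GFP-only values of 2.46 and 3.02 RPM lay at the level of the inputs. The log2 difference from input was 3.18 ± 0.458 (SE; limma adjusted p = 0.00352), and 96.5% and 96.8% of its reads in the AGO9 IPs were 24 nt long, against 65.9% and 61.4% in the inputs. AT2TE25400 (chr2:6229357-6232388) had 51.5 and 82.1 RPM against 7.24 and 7.11 RPM, with a log2 difference of 3.01 ± 0.762 (SE; limma adjusted p = 0.0138). At 24 nt alone it rose from 3.95 and 3.73 RPM to 49.4 and 80.1 RPM. AT2TE13080 (chr2:3000613-3005283) had 88.0 and 157.6 RPM against 13.2 and 17.1 RPM, and the AGO5 IPs were as high, at 80.1 and 210.1 RPM. In all 3 the groups did not overlap and the GFP-only IPs were at or below the inputs.

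**Figure D3:**
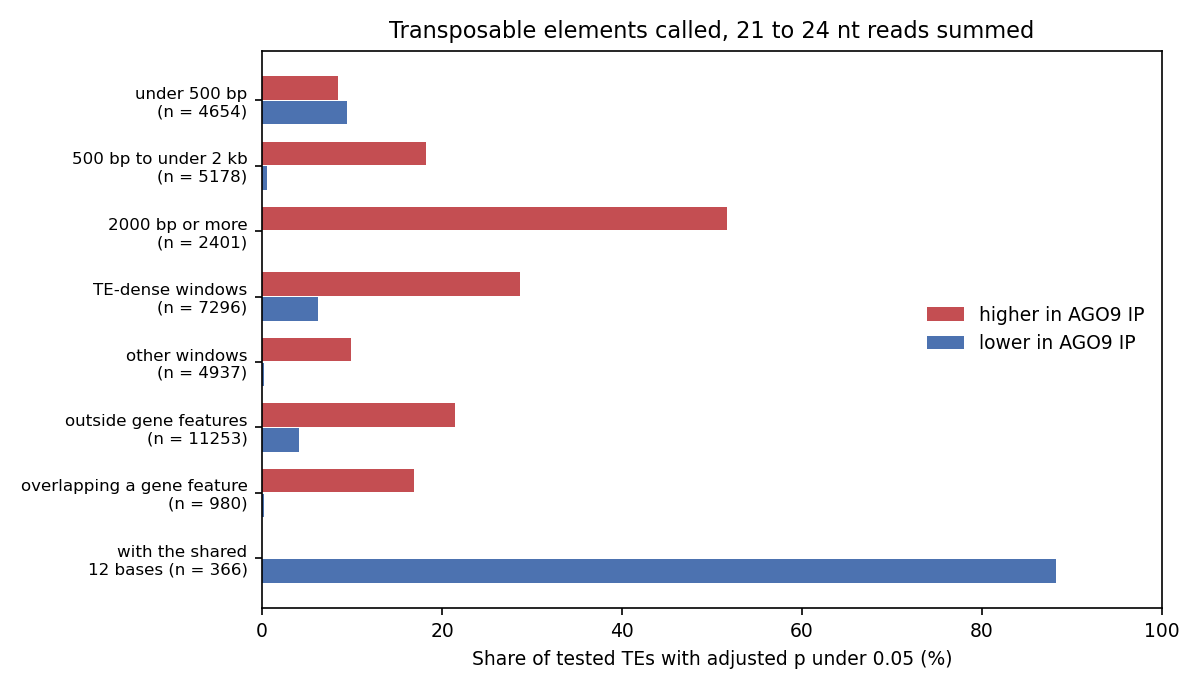
Share (%) of the TEs tested in each stratum that were higher (red) or lower (blue) in the AGO9 IP than in the input at an adjusted p under 0.05, 21 to 24 nt reads summed; n is the number tested. Long TEs reach 51.7% higher with 0 lower, and TEs with the shared 12 bases reach 88.3% lower with 0 higher.

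The 465 lower TEs were short, with a median of 64 bp against 1836 bp for the 2580 higher TEs, and 327 lay on chromosome 3 and 120 on chromosome 5. Most held the same sequence. The word of 12 bases found in most of them, TAGTACTACTCT (searched on both strands), was present in 323 of the 465 (69.5%) and in 369 of all 31189 annotated TEs (1.183%). It was in 0 of the 2580 higher TEs. Of 366 TEs with the word that were tested, 323 were lower, 0 were higher, and the median log2 difference was -1.76. The word was chosen after these values were seen, so the counts are a description with no test. Sequences of 2 such elements and of AT5TE45320, a named lower TE without the exact word, are shown 5′ to 3′ on the plus strand of TAIR10.1, with the word in capitals.
AT3TE55885 (chr3:13722094-13722157): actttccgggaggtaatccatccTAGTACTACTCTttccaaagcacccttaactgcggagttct
AT5TE45255 (chr5:12807805-12807868): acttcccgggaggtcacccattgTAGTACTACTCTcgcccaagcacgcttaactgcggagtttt
AT5TE45320 (chr5:12812790-12812843): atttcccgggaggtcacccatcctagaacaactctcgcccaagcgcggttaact
Among annotated genes 18 protein-coding genes hold the word. No nuclear 5S rRNA gene was used here, so the elements were not compared with one, and what they are is not given in the sources used here. They count as TEs by the annotation alone, and whether their reads came from TEs was not tested.

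These elements took 5.07% and 5.25% of the AGO9 IPs, 17.6% and 16.0% of the inputs, 7.68% and 14.7% of the GFP-only IPs and 25.4% and 19.2% of the AGO5 IPs. The AGO9 IPs were the lowest of the 4 groups. In the inputs 19.3% and 18.3% of their reads were 24 nt long, and in the AGO9 IPs 36.9% and 37.4%, far below the 91.8% and 95.7% of the other TEs. AT3TE55885 had 15.9 and 46.7 RPM in the AGO9 IPs and 176 and 159.5 RPM in the inputs (log2 difference -2.57 ± 0.479, SE; limma adjusted p = 0.00524). AT5TE45320 had 9.30 and 6.78 RPM against 95.2 and 97.1 RPM (log2 difference -3.44 ± 0.536, SE; limma adjusted p = 0.00397), and 2 annotated features shared exactly these reads. With the elements left out, 2580 of 11867 TEs were higher and 142 lower, and the TE share of reads was 77.1% and 88.6% in the AGO9 IPs against 48.6% and 52.1% in the inputs. Since copies share reads, the number of lower elements is not a number of independent loci. Another pair of named lower TEs, AT5TE11315 and AT5TE46150, did not hold the word. AT5TE11315 fell from 642 and 605 RPM to 97.4 and 31.8 RPM, with 105 and 1282 RPM in the GFP-only IPs, while AT5TE46150 fell from 21.9 and 21.1 RPM, nearly all of it 21 nt long, to 1.36 and 1.12 RPM. AT1TE50750 (chr1:15372964-15375160) was the TE named for its 22 nt reads, which fell from 48.7 and 40.8 RPM to 4.48 and 2.48 RPM while 80.1% and 90.7% of its reads in the AGO9 IPs were 24 nt long.

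Among MIRNA genes, 3 of 153 tested were higher in the AGO9 IP and 29 lower, and the median log2 difference was -1.60. The list had 325 genes, of which 132 were listed at 0 in all 16 libraries and were not tested. MIR856, MIR1887, MIR4240 and MIR5022 had 0 RPM in the 4 libraries compared. They met the minimum through other libraries, and their differences of 0 enter the medians. MIR829 (AT1G32713, chr1:11834022-11834226) had 29.3 and 18.6 RPM in the AGO9 IPs and 1.81 and 2.208 RPM in the inputs, a log2 difference of 3.02 ± 0.624 (SE; limma adjusted p = 0.00669). Its reads in the AGO9 IPs were 97.7% and 96.8% of 24 nt, the length of miR829-3p.1, and its GFP-only and AGO5 levels lay between 1.03 and 2.33 RPM. MIR8121, whose annotated product is 24 nt long, had 8.19 and 10.7 RPM against 1.68 and 1.86 RPM (log2 difference 1.90), and MIR5638a had 1.59 and 3.19 RPM against 0.582 and 0.414 RPM (log2 difference 1.14). At MIR5638a, whose annotated product has 21 nt, 94.4% and 96.5% of the reads of the AGO9 IPs were 24 nt long. The 6 tested genes with a mature product of at least 23 nt gave 2 higher and 0 lower, with a median of 0.74, and the 147 others gave 1 higher and 29 lower, with a median of -1.63.

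By the first base of the annotated guide strand, loci that start with A had a median log2 difference of -0.08 (23 tested, 2 higher, 4 lower). Those that start with U had -1.74 (110 tested, 0 higher, 20 lower), those with C -2.73 (14 tested, 1 higher, 4 lower) and those with G -0.39 (4 tested, none called). The 4 lower loci with A were MIR172 genes, so a first A did not go with a rise at every locus. MIR829 was the higher locus counted under C, the first base of miR829-3p.2, the product taken as its guide. Many loci of a family share reads, and these counts are not of independent loci.

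**Figure D4:**
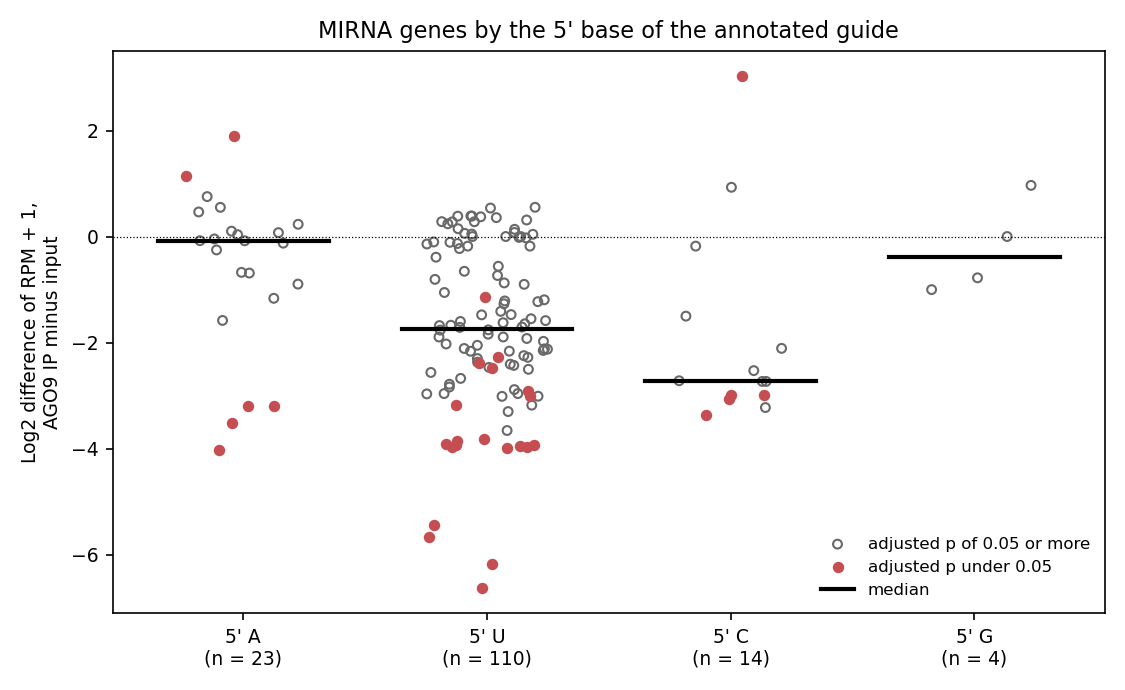
Log2 difference of RPM + 1 (AGO9 IP minus input, day 7, all sizes) of each tested MIRNA gene by the first base of its annotated guide strand, with the median as a bar and filled points for an adjusted p under 0.05. Medians are -0.08 for A, -1.74 for U, -2.73 for C and -0.39 for G, and the filled points below 0 under A are MIR172 loci.

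The miRNAs that fell were led by MIR169, which targets NF-YA transcription factors: 13 of 14 loci were lower, with log2 differences from -6.62 to -3.06. MIR169d (AT1G53683) had 2.58 and 0.181 RPM in the AGO9 IPs and 196.6 and 206.5 RPM in the inputs, with 11.0 and 14.2 RPM in the GFP-only IPs. Its log2 difference was -6.62 ± 0.611 (SE; limma adjusted p = 0.00136) from the input and -2.72 from the GFP-only IP (limma adjusted p = 0.00264). MIR169g and MIR169f gave -6.17 and -5.68. All 5 MIR172 loci, which target APETALA2-like factors, were lower, with 1.11 and 0.633 RPM summed in the AGO9 IPs against 63.5 and 72.6 RPM in the inputs. MIR156a and MIR156c, MIR396a and MIR396b, and MIR395a and MIR395e were lower too, and at 22 nt MIR156c fell from 421.5 and 396.2 RPM to 26.2 and 1.03 RPM. MIR824, MIR823, MIR830, MIR863 and MIR5642a completed the lower loci. Against the GFP-only IP the MIR172 loci were not called lower (limma adjusted p 0.105 to 0.195), nor were MIR395a and MIR395e. Over all 153 miRNA genes tested, however, 73 were lower and 9 higher than in the GFP-only IP (median -2.44), where 4.92% of all features were lower and 60.2% higher. The AGO9 replicates did not give miRNAs alike. The 8 tested MIR165 and MIR166 loci, which target class III HD-ZIP genes, summed to 35272 RPM in AGO9 replicate 1 and 1793 RPM in replicate 2, against 6781 and 6091 RPM in the inputs, and none was called. Their median log2 difference was 0.32 with all libraries, -1.83 without AGO9 replicate 1, 2.47 without AGO9 replicate 2 and -0.22 with median centring. MIR159 loci summed to 17640 and 1862 RPM against 17295 and 19982 RPM. The number of lower miRNA genes was 45 without AGO9 replicate 1 and 3 without AGO9 replicate 2, and 2 and 6 without input replicates 1 and 2. MIR839 had at most 0.305 RPM in the 4 libraries and MIR822 was listed at 0.

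Of 3172 protein-coding genes tested, 278 were higher and 650 lower, and the median log2 difference was -0.16, below that of all features, and 0.54 among the more abundant genes with a mean of at least 10 RPM over all libraries. In TE-dense windows 139 of 566 were higher and 40 lower, with a median of 1.16. Genes that overlapped a TE had 90 of 718 higher and 60 lower, and genes without a TE had 188 higher and 590 lower of 2454. At 24 nt, 504 of 1654 genes were higher and 52 lower, a share close to that of all features at that size. AT1G36230 (chr1:13610985-13614051) had 47.7 and 66.7 RPM in the AGO9 IPs against 6.73 and 7.66 RPM, with 97.1% and 97.0% of 24 nt in the IPs. AT2G06645 (chr2:2647991-2649647) had 18.4 and 28.0 RPM against 2.59 and 3.17 RPM, and both of these genes overlap a TE. AT2G07674 (chr2:3268932-3269906) differed from them. It had 204 and 48.5 RPM against 5.56 and 6.14 RPM (log2 difference 3.88 ± 0.796, SE; limma adjusted p = 0.00661), but only 9.003% and 27.9% of its reads in the AGO9 IPs were 24 nt long. It was as high in the GFP-only IPs, at 143 and 231 RPM, and its difference from them was not called (limma adjusted p = 0.346). The count of higher protein-coding genes was 88, 9, 0 and 33 without AGO9 replicate 1, AGO9 replicate 2, input replicate 1 and input replicate 2, and that of lower genes was 482, 175, 52 and 330.

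The named protein-coding genes that fell did so with little shift in their 24 nt share. ATMS1 (AT5G17920), which encodes a methionine synthase, fell from 64.9 and 62.0 RPM to 1.61 and 1.79 RPM (log2 difference -4.58 ± 0.831, SE; limma adjusted p = 0.00469). GUN5 (AT5G13630), which encodes a subunit of the magnesium chelatase of chlorophyll synthesis, fell from 71.7 and 60.5 RPM to 3.51 and 1.73 RPM. Of the reads of ATMS1 16.7% to 19.4% were 24 nt long in the 4 libraries, and of those of GUN5 20.98% to 23.98%. AT5G24010 fell from 125.04 and 126 RPM to 7.18 and 4.51 RPM, with at most 1.995% of 24 nt reads in a library. Among other nuclear genes the transcribed pseudogenes AT4G03695, AT2G11630 and AT3G30875 rose by 2.48, 2.37 and 2.29 on the log2 scale, with 24 nt shares of 91.6% to 97.8% in the AGO9 IPs. In that group, 68 of 293 transcribed pseudogenes were higher and 6 lower, and 23 of 229 long noncoding RNA genes were higher and 4 lower. Among all features tested, 17.6% were higher and 9.48% lower. The pseudogene AT3G32990 gave the largest fall at 23 nt, from 145 and 164.7 RPM to 2.85 and 2.219 RPM, while 93.7% and 95.9% of its reads in the AGO9 IPs were 24 nt long against 27.4% and 26.8% in the inputs.

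**Figure D5:**
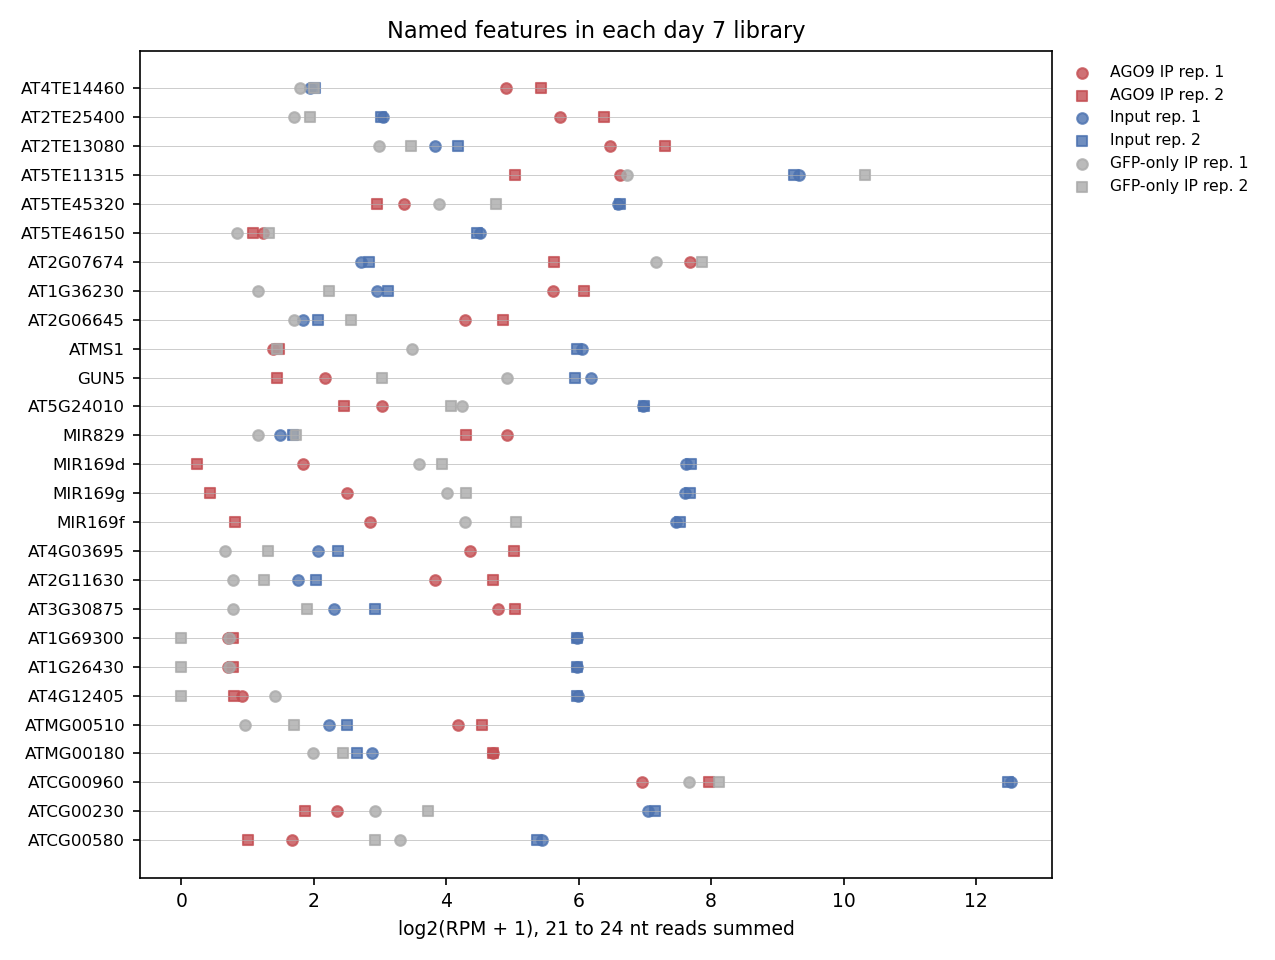
Level of each named feature, log2(RPM + 1) of 21 to 24 nt reads summed, in the 2 AGO9 IP (red), 2 input (blue) and 2 GFP-only IP (grey) libraries of day 7. Red points lie apart from blue points in every row, which the rule for naming required, and in the lower structural RNA and plastid features the grey points lie nearer the red ones than the blue.

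Structural RNA was lower in the AGO9 IP at every read size. Of 562 genes tested 373 were lower and 0 higher, made up of 336 of 466 tRNA genes, 2 of 3 rRNA genes, 19 of 73 snoRNA genes and 16 of 20 snRNA genes. The named members were all tRNA genes, which carry amino acids to the ribosome. AT1G69300 (chr1:26049478-26049551) had 0.627 and 0.713 RPM in the AGO9 IPs and 62.0 and 61.8 RPM in the inputs, a log2 difference of -5.24 ± 0.909 (SE; limma adjusted p = 0.00437). AT1G26430, which had the same reads as 3 other features, and AT4G12405 had almost the same values. The sequences (TAIR10.1, plus strand) are shown because genes this alike may hold the same reads.
AT1G69300: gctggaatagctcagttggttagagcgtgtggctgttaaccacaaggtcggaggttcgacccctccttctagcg
AT1G26430: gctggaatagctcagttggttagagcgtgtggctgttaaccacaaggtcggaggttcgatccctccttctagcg
The GFP-only IPs were as low at AT1G69300, with 0.652 and 0 RPM, and against them 34 of the 562 structural RNA genes were lower in the AGO9 IP and 0 higher, where 4.92% of all features tested were lower and 60.2% higher. The number lower than the input was 195, 128, 31 and 150 without AGO9 replicate 1, AGO9 replicate 2, input replicate 1 and input replicate 2.

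Plastid features had fewer reads in the AGO9 IP, while mitochondrial features were called in both directions, as all features together were. Of 127 plastid features 66 were lower and 0 higher. Of 87 mitochondrial features 12 were higher and 6 lower, with a median of 1.07, where 17.6% of all features were higher and 9.48% lower. The mitochondrial counts became 6 higher and 12 lower with median centring and 3 and 10 with quantile normalization, and the median was -0.08 among the 19 features that averaged 10 RPM or more. The 12 higher mitochondrial calls became 6, 0, 0 and 0 without AGO9 replicate 1, AGO9 replicate 2, input replicate 1 and input replicate 2, and the 66 lower plastid calls became 62, 10, 3 and 20. ATCG00960, at the place of rrn4.5S in RefSeq, had 123 and 249 RPM in the AGO9 IPs and 5889.5 and 5733 RPM in the inputs, with 203 and 276 RPM in the GFP-only IPs, and it shared its reads with 1 other feature. ATCG00230 (trnD) fell from 132 and 142 RPM to 4.10 and 2.66 RPM, and ATCG00580 (psbE, a subunit of photosystem II) from 42.5 and 40.3 RPM to 2.19 and 1.004 RPM. The mitochondrial features ATMG00510 and ATMG00180 rose from 3.69 and 4.69 RPM to 17.1 and 22.2 RPM and from 6.34 and 5.31 RPM to 25.1 and 25.1 RPM. Of their reads in the AGO9 IPs 90.2% to 95.8% were 24 nt long, against 49.1% to 55.9% in the inputs. Chromosome 2 carries a copy of mitochondrial sequence, and these reads were not assigned to one or the other here.

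The trans-acting siRNA loci (TAS), which give 21 nt siRNAs, had no locus called higher. Of 8 loci, 0 were higher and 1 was lower, where 17.6% of all features were higher and 9.48% lower. The lower locus was AT3G25795, with 0.591 and 0.161 RPM against 9.19 and 4.62 RPM (limma adjusted p = 0.00813). The 7 others had log2 differences from -2.38 to -1.96, none called, with wide replicate gaps: TAS1C had 3038 RPM in AGO9 replicate 1 and 124 RPM in replicate 2, against 2427 and 2720 RPM in the inputs. Against the GFP-only IP all 8 loci were lower (median -3.45), where 4.92% of all features were lower. In the GFP-only IPs TAS1C had 4910 and 10720.2 RPM. Of the 10 ARGONAUTE genes 7 were tested and none was called, and AGO9 itself had 1.02 and 0.904 RPM in the IPs and 0.129 and 0.759 RPM in the inputs. Both lists were chosen with earlier results of these data known.

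Against the GFP-only IP, 2967 of the 2988 features higher than the input were higher as well (17.4% of all tested), among them 2567 TEs and all 3 miRNA genes. The 2 comparisons share the AGO9 libraries, so this is no separate support. Against the AGO5 IP of the same age, 3663 features (21.5%) lay above it in the AGO9 IP and 586 (3.44%) below it by limma. TEs made up 3328 of the higher and 488 of the lower features, and 4 miRNA genes were higher and 1 lower. MIR829 separated the 2 proteins, with 1.34 and 1.03 RPM in the AGO5 IPs against 29.3 and 18.6 RPM in the AGO9 IPs.

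The AGO9 difference from input was also compared between ages. By the limma interaction of IP and age, 121 features (0.711%) had a higher AGO9 difference at day 7 than at day 35 and 204 (1.2%) a lower one. The median of this difference, day 7 minus day 35, was 0.96 on the log2 scale, 13552 of 17020 estimates were above 0 and 4553 had an unadjusted p under 0.05, so the low count of calls does not show that few features differed. TEs made up 96 of the first and 73 of the second, and protein-coding genes 15 and 108. The 24 nt share was above the input at both ages, with 89.6% and 66.8% in the day 35 AGO9 IPs against 48.8% and 56.2% in the day 35 inputs. The TE share went opposite ways: at day 35 it was 74.9% and 72.6% in the AGO9 IPs and 76.6% and 80.3% in the inputs. AT4TE14460 was higher at day 7, with an interaction of 3.07 on the log2 scale (limma adjusted p = 0.0363). Age and tissue cannot be told apart in this comparison.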

How the data were processed

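The deposited table gave RPM for each of 65386 annotated features in 16 libraries, 1 column per read size from 21 to 24 nt. The authors scaled the RPM to the reads of all 4 sizes assigned to features in a library, which the values show, since the 4 columns have the same fixed sum in every library. Cutadapt 1.18, Bowtie2 2.3.5.1, featureCounts, Subread 2.0.1 and TAIR10 are named in the submitters' processing notes, with no role or order, and how reads with several matches were counted is not given in the sources used here. The combined 21 to 24 nt column of 1 day 35 library was treated as a score, since as deposited it does not have that sum, and the sum of the size columns was used in its place.

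Values were summed over sizes or kept by size, and log2(RPM + 1) was fitted with limma 3.58.1 (R 4.3.3) over 16 libraries in their 8 labelled groups, which then share one estimate of the spread. The tests took features averaging 1 RPM or more over the libraries, 17020 over all sizes and 36574 feature and size values by size. For the 24 nt preference that minimum was 10 RPM. Adjusted p-values are Benjamini-Hochberg over each fit, called under 0.05. Log2 differences are on the log2(RPM + 1) scale and understate changes of low features. Whole reads were recovered from the RPM for edgeR 4.0.16 and DESeq2 1.42.0. Alternatives were another pseudocount, minimum, scaling or set of libraries, and a replicate block. The procedure was tested on simulated data.

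Features named were, by class, up to 3 per direction with the largest difference among those called, with a mean of at least 10 RPM in the 4 libraries and no overlap, plus 1 TE and 1 gene per size and direction and 2 for the preference. All miRNA genes, TAS loci, ARGONAUTE genes and TE strata were lists beside these. The comparison, the lists and the rule were chosen with earlier results of these data known. Replicates of the AGO9 IP differed by a chi-square of 328 per degree of freedom over 31945 features and those of the input by 4.75 over 28413, so neither pair agreed within sampling noise. Coordinates and sequences are from RefSeq TAIR10.1, in which 33899 of 33900 nuclear gene features have the same coordinates as in the table. The same reads stood for 5673 features as for another feature.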

Additional observations from a re-analysis of the deposited data

Results flagged for a closer look

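The difference between AGO9 IP and input was higher at day 7 than at day 35 for 121 features and lower for 204, by the limma interaction. Among the named features AT4TE14460 was one of them, with a log2 difference of 3.07 between the ages.

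For 3 class shares both AGO9 libraries lay on one side of the inputs at day 7 and on the opposite side at day 35, and these differences between ages were not tested. The TE share was 25.03 points above the input at day 7 and -4.71 points from it at day 35. The protein-coding share was -0.656 points from the input at day 7 and 7.83 points above it at day 35. The share of other nuclear genes was -8.23 points from the input at day 7 and 4.47 points above it at day 35. Tissue and age differ together between these groups, and the AGO9 replicates of day 35 differed in their 24 nt share (89.6% and 66.8%).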

How the results depend on the processing

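The alternatives moved counts of calls, and no direction of the 42 named values turned. The higher minimum was 10 times the main one, and the lower one asked only for a read in any library (1 RPM for the preference). Over all sizes, 2988 features rose and 1614 fell, which became 1489 and 950 with a pseudocount of 0.1, 1772 and 777 with the higher minimum, 4651 and 6849 with the lower minimum, 1769 and 2474 with median centring, 1676 higher with quantile normalization, 9216 and 2676 with the 4 libraries alone, 5439 higher without the day 35 GFP-only libraries, 37 and 701 with edgeR and 942 higher with DESeq2. Leaving out 1 library gave 2 to 1532 higher and 89 to 932 lower. At 24 nt, 4319 higher and 331 lower became 964 and 128, 1994 and 69, and 7630 and 3135 with the pseudocount and the higher and lower minimum, 9426 and 6485 higher with median centring and quantile normalization, 139 lower without structural RNA, 10192 and 916 with 4 libraries, 7056 and 513 without the day 35 GFP-only libraries, 1422 and 23 with edgeR and 0 and 78 scaled per size. One library left out gave 0 to 1922 higher and 11 to 196 lower. From 21 to 23 nt, 3 higher and 3677 lower values became 1 and 788 with the pseudocount, 2259 lower with the higher minimum, 77 and 18338 with the lower minimum, 9 higher with median centring, 7 and 12337 with 4 libraries, 7608 lower without the day 35 GFP-only libraries, 72 lower with edgeR and 59 scaled per size. One library left out gave 0 to 1 higher and 6 to 1982 lower. The 5149 features with a higher 24 nt preference became 1314 and 9470 with the higher and lower minimum, the latter with 2 lower, 27 with 813 lower with median centring, 3 with 18 lower with quantile normalization, and 0 to 4352 with 1 library left out. With 4 libraries 27 fell in preference and without the day 35 GFP-only libraries 3 did. The cause of these changes was not tested, apart from the fewer or more features that another minimum tests and the fewer libraries where some were left out. Of 611 comparisons of a named value with an alternative, 475 kept their side of the threshold and 136 did not. Without a library, 9 of the 42 (AGO9 replicate 1), 27 (AGO9 replicate 2), 36 (input replicate 1) and 19 (input replicate 2) lost their call, where the lone library of a group is assumed to vary like the other groups.

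The 24 nt share, 46.7 points above the input, was 40.01 to 53.4 points above it with 1 library left out, and the TE share 19.5 to 30.5 points. With each feature counted once per size at 1 RPM or more, instead of by its reads, these differences were 25.8 and 9.27 points, and that of protein-coding genes went from -0.656 to -7.07 points. Without structural RNA the TE difference was 18.1 points. The miRNA share, -1.005 points from the input, was 2.34 points above it without AGO9 replicate 2 and -4.35 points from it without AGO9 replicate 1. Leaving out the TEs with the shared 12 bases, chosen after seeing the data, gave a TE difference of 32.5 points. Replicate numbers were not taken as pairs, and the labels give input replicate 1 another line. The deviations of same-numbered AGO9 and input libraries correlated at r = 0.0299 over features. With 1 such pair of deviations this cannot exclude a pairing. With a replicate block the counts were 3112 higher and 1659 lower over all sizes, 4119 and 330 at 24 nt, 3 and 3461 from 21 to 23 nt and 5108 with a higher 24 nt preference. Depth limited the lowest features, for which 3 reads in an input came to 0.194 and 0.207 RPM.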
